A study of Mus musculus with 9 samples.

Results

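Oestrogen receptors, oestrogen-related receptors and 2 classic oestrogen-responsive genes were examined in the hippocampus of ageing mice that ate soybean extracts. The set comprised 8 genes, chosen because soybean isoflavones bind oestrogen receptors: Esr1, Esr2, Gper1, Esrra, Esrrb, Esrrg, Pgr and Greb1. Every probe set, the group of array probes that stands for a transcript, was taken if the platform annotation gave it a single symbol from this set and it had a value on all 9 arrays. Each gene had exactly 1 such probe set, so the 8 genes were followed by 8 of the 21959 probe sets tested.

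The green soybean group consisted of male SAMP10/TaSlc mice, a senescence-accelerated strain, given the CE-2 diet with 3.0% green soybean extract between 1 and 12 months of age. The yellow soybean group had the same strain, sex and feeding period, with 3.0% yellow soybean extract in CE-2. The control group consisted of male SAMP10/TaSlc mice on the control diet, taken from its sample label because the treatment text shared by all samples names only the extract diet. The strain label is the same in all 3 groups, but every sample title carries the name SMP30, and this difference could not be settled from the labels. No group with another strain label was analysed here. The labels describe 5 groups of 12 mice with 6 to a cage, of which 3 diets with 3 arrays each were available for this report. Nothing in them ties an array to a particular mouse, a pool of mice or a cage. The p-values below thus cover only the variation among these 9 samples, some of which may be technical, and cage and diet cannot be told apart.

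The oestrogen receptors alpha (Esr1) and beta (Esr2) are transcription factors of the nuclear receptor family that bind oestradiol and then bind DNA at oestrogen response elements or act through other factors. Isoflavones of soybean are plant compounds that bind both receptors, with a preference for the beta form. The oestrogen-related receptors (Esrra, Esrrb, Esrrg) resemble them in sequence but have no known natural oestrogen ligand, and they control genes of energy metabolism together with coactivators such as Ppargc1a. In the hippocampus, oestradiol is known for effects on dendritic spines and memory.

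Values are normalized scores on a logarithmic z-type scale, 1 per probe set and array, and differences between diets are given in score units. The base of the logarithm is not stated. If it is 10, a difference of 0.1 is about 1.18-fold. A score depends on the probes as well as on the RNA, so no order of RNA levels between genes was read from the scores. Where a score is set beside those of other probe sets, it describes only how bright the probe set was on these arrays. The median of the mean scores over the 20614 probe sets that the authors had not centred was 0.176, and all 8 genes were among those probe sets. The correlation of an array with the other 8, averaged, lay between 0.977 and 0.981 for 8 arrays and was 0.958 for green soybean replicate 3. As a check of the tissue label, the median of mean scores was 0.573 over 7 dentate gyrus granule cell markers and 0.897 over 9 cornu ammonis pyramidal cell markers. It was -0.433 over 184 olfactory receptor probe sets, which stand here for genes the hippocampus is not known for. These 184, of 1023 olfactory receptor probe sets with 1 symbol, had a value on all 9 arrays and were not centred. The others could not be ranked, so positions among the 184 do not describe olfactory receptor probe sets as a whole.

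The scores of Esr1, Esr2, Esrra and Greb1 were higher on all 3 green soybean arrays than on all 3 control arrays. Of all probe sets tested, 13.2% had the same separation. None of the 8 genes passed the threshold in any comparison of diets (adjusted p of 0.05, limma with Benjamini-Hochberg adjustment over all 21959 probe sets). The stretches of DNA before the transcription starts of these 4 genes are shown because these were the genes whose green soybean and control arrays separated. Each line gives the 250 bases before the most upstream RefSeq start (build GRCm38.p6), 5' to 3' along the gene, in lower case. Capitals mark the only match to a searched motif, a TGACCT in Greb1, which is AGGTCA on the other strand.
Esr1 chr10:4611739-4611988 (+): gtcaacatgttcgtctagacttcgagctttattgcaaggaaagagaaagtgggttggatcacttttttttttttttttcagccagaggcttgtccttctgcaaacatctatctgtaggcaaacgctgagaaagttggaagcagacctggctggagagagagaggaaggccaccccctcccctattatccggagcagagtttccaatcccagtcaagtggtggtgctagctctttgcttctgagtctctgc
Esr2 chr12:76177260-76177509 (-): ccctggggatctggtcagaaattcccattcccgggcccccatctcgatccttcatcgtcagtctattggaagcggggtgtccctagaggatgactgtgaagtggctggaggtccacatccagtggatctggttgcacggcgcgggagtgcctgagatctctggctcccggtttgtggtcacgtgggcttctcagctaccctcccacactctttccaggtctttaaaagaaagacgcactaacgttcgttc
Esrra chr19:6921809-6922058 (-): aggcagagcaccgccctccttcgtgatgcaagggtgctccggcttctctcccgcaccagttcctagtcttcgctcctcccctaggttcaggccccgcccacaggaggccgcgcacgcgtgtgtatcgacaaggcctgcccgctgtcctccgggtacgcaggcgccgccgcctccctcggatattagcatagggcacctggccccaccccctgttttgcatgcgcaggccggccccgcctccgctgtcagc
Greb1 chr12:16800887-16801136 (-): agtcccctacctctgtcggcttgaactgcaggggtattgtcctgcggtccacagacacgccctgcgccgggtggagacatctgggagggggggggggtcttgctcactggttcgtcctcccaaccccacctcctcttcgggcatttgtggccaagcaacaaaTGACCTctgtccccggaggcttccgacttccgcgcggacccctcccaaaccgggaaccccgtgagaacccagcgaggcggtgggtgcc

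The motifs were searched on both strands in 32851 RefSeq promoter windows of this length. The palindromic oestrogen response element, spelled GGTCA and TGACC with any 3 bases between them, was in 21 of them (0.0639%). The oestrogen-related receptor element, spelled TCA followed directly by AGGTCA, was in 127 (0.387%). The core AGGTCA, which is the end of the oestrogen-related receptor element and can overlap the palindrome, was in 4607 (14.02%). Of the 14 windows listed for the 8 genes, 0 held the palindrome, 0 held the oestrogen-related receptor element and 1 held the core. That window belongs to Greb1, where the match begins 88 bases before the start. A match describes letters and not a bound site, and its absence speaks only of this window.

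Esr1 encodes oestrogen receptor alpha. Its score was -0.0586, -0.157 and -0.164 on the green soybean arrays, -0.254, -0.260 and -0.331 on the yellow soybean arrays, and -0.209, -0.240 and -0.232 on the control arrays. The green arrays were the highest, the yellow arrays the lowest and the control arrays between them, with no overlap of any pair of diets. Esr1 averaged -0.127 ± 0.0591 on green soybean, -0.282 ± 0.0432 on yellow soybean and -0.227 ± 0.0162 on control arrays (SD, n = 3 each). The green minus control difference was 0.101 (SE 0.0510, 95% interval -0.0107 to 0.212) with limma adjusted p = 0.550. Esr1 was therefore not called. Without green soybean replicate 1 that difference was 0.0665. Between green and yellow soybean the difference was 0.155 (interval 0.0437 to 0.266; limma adjusted p = 0.634), and the yellow minus control difference was -0.0545 (interval -0.166 to 0.0568), or -0.0296 without yellow soybean replicate 3. Of the 184 olfactory receptor probe sets, 164 had a lower mean score than Esr1, whose mean of -0.212 lay below their 95th percentile of -0.121. An order of green above control above yellow without overlap was found in 30 of all probe sets tested (0.137%). That order was taken from Esr1 itself and the reverse order was not counted, so the share is a description.

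Esr2 encodes oestrogen receptor beta, the form for which isoflavones have the higher affinity. Its score was -0.326, -0.398 and -0.331 on green soybean arrays, -0.469, -0.625 and -0.329 on yellow soybean arrays, and -0.447, -0.449 and -0.674 on control arrays. All green arrays were above all control arrays, but the yellow arrays spread over nearly the whole range of both other diets. Green minus control came to 0.172 (SE 0.0808, interval -0.00460 to 0.348; limma adjusted p = 0.526), and without control replicate 3 it was 0.0966. That control array was the lowest of the 9, so the size of the difference rests in part on it. The yellow minus control difference was 0.0491 (interval -0.127 to 0.225) and the green minus yellow difference 0.123 (interval -0.0537 to 0.299). The green minus yellow difference was 0.0473 without yellow soybean replicate 2 and 0.195 without yellow soybean replicate 3. Yellow minus control ranged from -0.0260 without control replicate 3 to 0.124 without yellow soybean replicate 2. Of the 184 olfactory receptor probe sets, 84 had a lower mean score than Esr2.

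Gper1 encodes a G protein-coupled receptor of the cell membrane that mediates rapid responses to oestradiol. Its score was 0.0785, -0.175 and -0.0489 on green soybean arrays, -0.119, 0.0163 and -0.0958 on yellow soybean arrays, and -0.0858, -0.0849 and -0.0562 on control arrays. The diets overlapped, and the green arrays alone spread from the lowest to the highest score of the 9. The green minus control difference of 0.0272 had a 95% interval of -0.117 to 0.172 (limma adjusted p = 0.921). The interval spans differences as large as the one seen for Esr1, in either direction.

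Esrra encodes oestrogen-related receptor alpha, a regulator of mitochondrial genes. Its score was 0.352, 0.274 and 0.365 on green soybean arrays, 0.220, 0.187 and 0.260 on yellow soybean arrays, and 0.221, 0.207 and 0.134 on control arrays. Every green array exceeded every yellow and every control array, whereas yellow and control arrays overlapped. Esrra averaged 0.330 ± 0.0494 on green soybean, 0.223 ± 0.0366 on yellow soybean and 0.187 ± 0.0466 on control arrays (SD, n = 3 each). Green minus control came to 0.143 (SE 0.0513, interval 0.0311 to 0.255; limma adjusted p = 0.461). With a logarithm of base 10 that would be 1.26-fold (1.05 to 1.51). The green minus yellow difference was 0.108 (interval -0.00440 to 0.220; adjusted p = 0.719), and the yellow minus control difference was 0.0355 (interval -0.0765 to 0.148), or 0.00892 without control replicate 3. All 184 olfactory receptor probe sets had a lower mean score than Esrra.

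Esrrb encodes oestrogen-related receptor beta, known from embryonic stem cells and the inner ear. Its score was -0.362, -0.585 and -0.477 on green soybean arrays, -0.398, -0.678 and -0.378 on yellow soybean arrays, and -0.406, -0.460 and -0.572 on control arrays. The 3 diets overlapped throughout, and the green minus control difference was 0.00487 (interval -0.182 to 0.192). Its mean score was above that of 68 of the 184 olfactory receptor probe sets. Esrrg encodes oestrogen-related receptor gamma, which is active without ligand and is expressed in brain. Its score was 0.243, 0.110 and 0.179 on green soybean arrays, 0.167, 0.0424 and 0.286 on yellow soybean arrays, and 0.156, 0.141 and 0.121 on control arrays. The control arrays lay close together and inside the spread of both soybean diets, and the green minus control difference was 0.0382 (interval -0.103 to 0.179).

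Pgr and Greb1 are responsive to oestrogen in reproductive tissues. Pgr encodes the progesterone receptor and scored 0.333, 0.306 and 0.268 on green soybean arrays, 0.316, 0.210 and 0.397 on yellow soybean arrays, and 0.290, 0.211 and 0.337 on control arrays. Its diets overlapped, and the green minus control difference of 0.0230 had an interval of -0.107 to 0.153. Greb1, a cofactor of oestrogen receptor alpha in human breast cancer cells, scored -0.499, -0.544 and -0.543 on green soybean arrays, -0.566, -0.632 and -0.703 on yellow soybean arrays, and -0.606, -0.663 and -0.632 on control arrays. All green arrays exceeded all arrays of the other diets. The green minus control difference was 0.105 (SE 0.0516, interval -0.00768 to 0.217; limma adjusted p = 0.543) and the green minus yellow difference 0.105 (interval -0.00734 to 0.218). Yellow and control arrays had nearly the same mean, with a difference of -0.000336 (interval -0.113 to 0.112). The score of Greb1 was low for this array: only 12 of the 184 olfactory receptor probe sets had a lower mean.

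**Figure D1:**
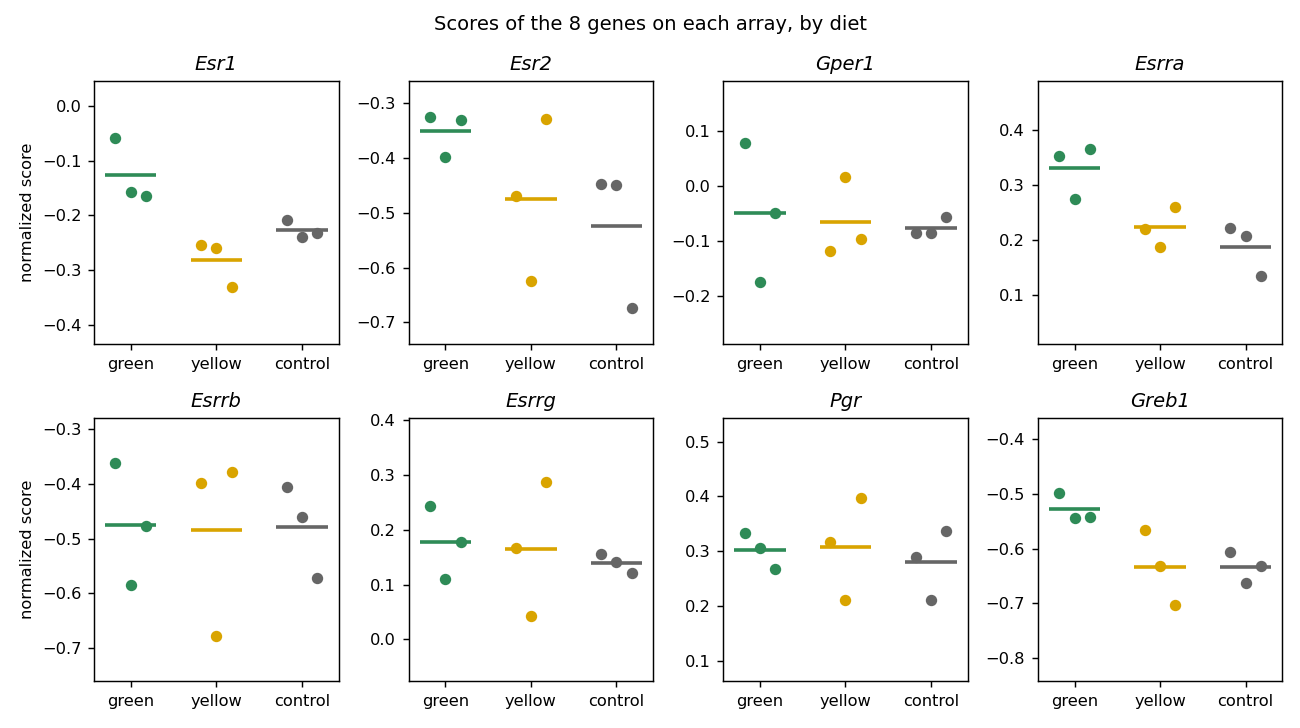
Normalized score (vertical axis, score units, each panel with its own range) of each of the 8 genes on each array, with green soybean, yellow soybean and control from left to right; points are arrays and the bar is the mean of 3. The green points of Esr1, Esr2, Esrra and Greb1 lie above all control points, and those of Gper1, Esrrb, Esrrg and Pgr overlap them.

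The comparison of the green soybean with the control diet asks how the extract named in the study's title moved these genes. All 8 differences were above 0, but so were 65.0% of all probe sets, whose median difference was 0.0296. This count depends on how the arrays were scaled: with array medians aligned, under quantile normalization or with arrays aligned on the olfactory receptor median, 4 of the 8 genes were above 0 and 4 below. Those above were Esr1, Esr2, Esrra and Greb1, with Esr1 at 0.0504, 0.0495 and 0.0141 under these 3 scalings. The share of all probe sets above 0 was then 39.4%, 50.8% and 23.8%. The test called 0 of the 8 genes and 0 of all probe sets (0%). At an unadjusted p below 0.05, limma found 1 of the 8 genes higher, Esrra, against 8.32% of all probe sets, and 0 lower, against 1.4%. All 3 green arrays lay above all 3 controls for 4 of the 8 genes, against 13.2% of all probe sets, and below them for 0, against 2.67%. With 8 genes and no call, these counts are a description of the set.

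In the comparison of the yellow soybean with the control diet, the differences of the 8 genes lay between -0.0545 and 0.0491. Of the 8 genes, 5 were above 0 and 3 below, against 60.4% of all probe sets above 0, with a median of 0.0140. With medians aligned it was 2 above and 6 below, and 39.0% of all probe sets. Esrra (0.0355) and Esr2 (0.0491) had positive differences and Esr1 (-0.0545) a negative one, and every limma adjusted p of the 8 genes was 1.00. No gene was called and 0% of all probe sets were. At an unadjusted p below 0.05, 0 of the 8 were higher or lower, against 2.11% and 0.929% of all probe sets. No gene had all 3 yellow arrays above all controls, which 6.65% of probe sets did. Esr1 had all 3 below, which 2.65% did.

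Green and yellow soybean were also set against each other at the same dose and feeding period. Of the 8 genes, 7 had higher means on green soybean arrays, against 58.0% of all probe sets (median 0.0147). Under each of the 3 other scalings, 4 of the 8 were higher. The test called 0 genes and 0% of probe sets. Esr1 was the gene with an unadjusted limma p below 0.05 and was higher, against 5.56% of probe sets, and 0 genes were lower, against 1.53%. Esr1, Esrra and Greb1 had all 3 green arrays above all 3 yellow arrays, against 7.63% of probe sets, and 0 genes had them all below, against 2.92%. For Pgr the difference was -0.00518. Taking both soybean diets against control, 0 genes were called (0% of probe sets) and 0 had an unadjusted p below 0.05, against 5.87%. The moderated F-test over the 3 diets called 0 genes (0% of probe sets), and at an unadjusted p below 0.05 it found Esr1 (limma adjusted p = 0.690) and Esrra (adjusted p = 0.696), against 7.06% of probe sets.

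**Figure D2:**
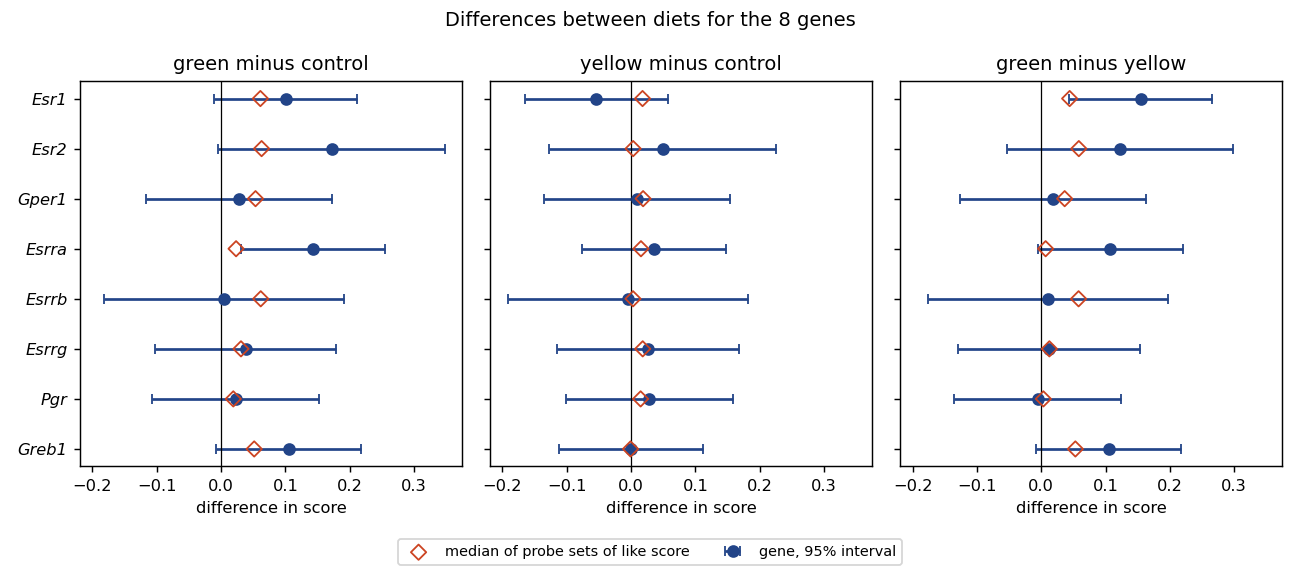
Differences between diets in score units (horizontal axis) for the 8 genes, with green minus control, yellow minus control and green minus yellow from left to right. Filled points are limma estimates with 95% intervals and open diamonds are the median difference of probe sets of like score; the interval lies above 0 for Esrra in green minus control and for Esr1 in green minus yellow, and includes 0 for the other genes and comparisons.

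Dim probe sets as a whole lay higher on the green soybean arrays. Over the 184 olfactory receptor probe sets, the median score was -0.397, -0.413 and -0.315 on green soybean arrays, -0.426, -0.480 and -0.425 on yellow soybean arrays, and -0.478, -0.446 and -0.460 on control arrays. All 3 green medians were above all others, and the median difference of these probe sets was 0.0952 for green minus control and 0.0201 for yellow minus control. The 4 genes were therefore also read against uncentred probe sets whose mean score lay within 0.1 of their own. For Esr1 those were 2927 probe sets with a median green minus control difference of 0.0611, and 20.9% of them had all green arrays above all controls. For Esr2 the median was 0.0629 and the share 17.0%, over 2707 probe sets. For Greb1 it was 0.0514 and 14.3%, over 983. Esrra, whose score was higher, had 2305 such probe sets with a smaller median of 0.0233 and a share of 10.6%.

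With the median of those probe sets subtracted on each array, Esrra stood at 0.0718, 0.0246 and 0.125 on green soybean arrays, -0.0195, -0.0662 and 0.0118 on yellow soybean arrays, and -0.0216, -0.0135 and -0.107 on control arrays. Green and the other diets still did not overlap for Esrra. The share of other probe sets without overlap after this subtraction was not counted, for Esrra or for the genes below. Esr1 stood at 0.117, 0.0473 and -0.00946 on green soybean arrays, -0.0448, -0.0218 and -0.112 on yellow soybean arrays, and 0.0259, 0.00794 and 0.00735 on control arrays. Green and control arrays of Esr1 then overlapped through green replicate 3, while yellow stayed below both other diets. Esr2 stood at 0.0835, 0.0303 and 0.0309 on green soybean arrays, -0.0367, -0.144 and 0.130 on yellow soybean arrays, and 0.0102, 0.0204 and -0.216 on control arrays. Its green arrays stayed above its control arrays, and yellow replicate 3 was above all of them. Greb1 stood at 0.0196, -0.000376 and -0.0602 on green soybean arrays, -0.0216, -0.0354 and -0.132 on yellow soybean arrays, and -0.0443, -0.0844 and -0.0658 on control arrays. Its green arrays then overlapped those of both other diets. The part of this shift in the differences of the 4 genes was not tested beyond these values and the alternative scalings.

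**Figure D3:**
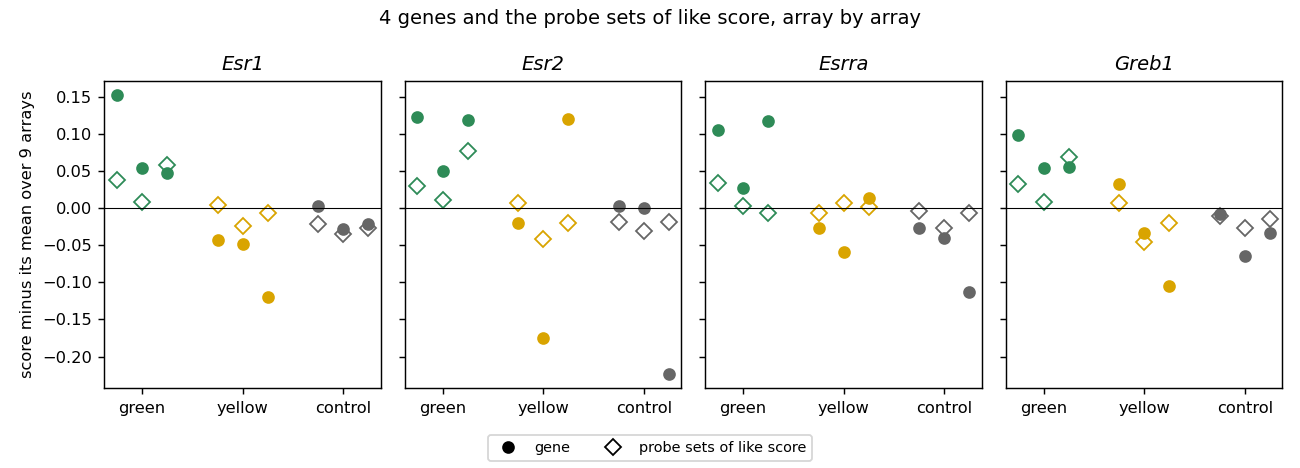
Score minus its own mean over the 9 arrays (vertical axis, score units) for Esr1, Esr2, Esrra and Greb1 as filled points and for the median of probe sets of like score as open diamonds, by diet from green soybean to control, 1 of each per array. The diamonds of Esr1, Esr2 and Greb1 also lie higher on green arrays than on control arrays, and the filled points of Esrra on green arrays lie above its diamonds.

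Esr1 is known to be more abundant in hypothalamus and amygdala than in hippocampus. Markers of those structures were listed to check the tissue label and whether other structures vary with diet. The lists were chosen with earlier results of these data known, so their counts are a description. Of the 12 marker genes, 10 were measured and 0 were called. All 10 had higher means on green soybean than on control arrays, against 65.0% of all probe sets, with a median difference of 0.103. Their mean score per array ranged from -0.136 to -0.0612 on green soybean, from -0.233 to -0.153 on yellow soybean and from -0.240 to -0.178 on control arrays. Hcrt, the precursor of orexin, differed by 0.171 between green soybean and control (limma adjusted p = 0.449), and Oxt, oxytocin, by 0.208 (adjusted p = 0.462). The Oxt probe set was one whose control mean the authors had set to 0, so its brightness is not known. Most of the other markers were dim, with a median of mean scores of -0.278, and dim probe sets as a whole lay higher on green arrays. Avp and Nr2f2 were brighter. Avp averaged 0.349 on green soybean and 0.245 on control arrays, and Nr2f2 0.235 and 0.144. Of the other lists, leptomeninges had 9 of 10 measured markers above 0 in green minus control (median 0.134) and GABAergic interneurons 10 of 11 (median 0.101). Choroid plexus had 7 of 9 above 0 (median 0.0880) and microglia 7 of 8 (median 0.0417), with 0 called in any of these lists. Centred in the same way as Oxt were 4 of the leptomeningeal, 4 of the interneuron, 1 of the choroid plexus and 1 of the microglia markers. Marker lists with a median below 0 were neurons, with 8 of 9 below 0 (median -0.0291), and dentate gyrus granule cells, with 4 of 7 (-0.0240). So were cornu ammonis pyramidal cells, with 7 of 9 (-0.0194), oligodendrocytes, with 6 of 8 (-0.0171), and astrocytes, with 5 of 9 (-0.00979). These were brighter lists, with medians of mean scores from 0.573 for dentate gyrus granule cells to 2.04 for neurons. Not all lists above 0 were dim. Over uncentred markers that median was 0.449 for interneurons and 0.430 for microglia, against 0.176 over all uncentred probe sets. For leptomeninges it was -0.167 and for choroid plexus -0.210. The median difference was 0.0147 for endothelium and pericytes and 0.0323 for thalamus, habenula and striatum. The part of all these lists in the differences of Esr1 and the other genes was not tested. In bulk tissue, fewer cells of a type and less RNA per cell cannot be told apart.

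Green soybean replicate 3, which stood apart from the other arrays, did not hold the differences of these genes up alone. Without it the green minus control difference was 0.119 for Esr1, 0.161 for Esr2, 0.126 for Esrra and 0.112 for Greb1, with limma adjusted p-values between 0.613 and 0.671. Without it the green minus yellow difference of Esr1 was 0.174.

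The genes of the set varied together over the 9 arrays to different degrees, which is given as a description because the arrays share the diet and the shift of dim probe sets. Pearson's r was 0.886 between Esr1 and Greb1, 0.871 between Esr2 and Esrra and 0.869 between Esrrb and Esrrg. Between the median of the olfactory receptor probe sets and the genes, r was 0.844 for Esrra, 0.672 for Esr2, 0.535 for Greb1 and 0.442 for Esr1. Outside the set, the probe sets most like Esr1 over the 9 arrays were those of H2-M9 (r = 0.974), Smg9 (0.959) and Cc2d1a (0.945). Those most like Esrra were Ap5z1 (0.982), Myo18b (0.972) and Wrnip1 (0.970), and those most like Esr2 were 2810039B14Rik (0.976), Tor1aip2 (0.968) and Adamtsl5 (0.963). For Greb1 they were 1700001J03Rik (0.973), Cd300e (0.968) and H2ac1 (0.956), and for Pgr Fam83c (0.967), Elmo1 (0.951) and Tbl1x (0.942). For the remaining genes, r of the most alike was 0.946 for Amotl1 with Gper1, 0.967 for Lrrc73 with Esrrb and 0.948 for Bpifb2 with Esrrg. Such values are the highest of about as many as there are probe sets, over 9 points each.

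In the authors' deposited table, which gives 1 p-value per probe set without stating its test or comparison, Esr2 had 0.00617 and Esrrb 0.00692. By the authors' deposited table, shares of 6.85% and 7.22% of the probe sets tested here had smaller values than these. The authors' deposited table gave 0.148 for Esrrg, 0.244 for Esr1, 0.621 for Esrra, 0.759 for Greb1, 0.906 for Gper1 and 0.933 for Pgr.

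Genes that act with the receptors were followed in 6 lists, and 0 genes of any of them were called in any comparison. Coregulators are proteins that receptors recruit to switch genes on or off, and 15 of 17 were measured. Of these, 6 were above 0 and 9 below in green minus control, with a median of -0.0149. Ppargc1a, the coactivator of oestrogen-related receptors, averaged 1.20 ± 0.103 on green soybean, 1.18 ± 0.111 on yellow soybean and 1.22 ± 0.0771 on control arrays (SD, n = 3 each). Those values are from the brighter of its 2 probe sets. Ncoa1, a coactivator of oestrogen receptors, differed by -0.0236 and Nrip1, a corepressor, by -0.0149. Yellow minus control had 8 coregulators above 0 and 7 below (median 0.00282).

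Of 20 genes of oestrogen synthesis and metabolism, 11 were measured, and 8 were above 0 in green minus control with a median of 0.0535. Aromatase (Cyp19a1) was not analysed here. The smallest p-values in that comparison belonged to Star, which brings cholesterol into mitochondria (0.133, limma adjusted p = 0.558), and to Hsd17b1 (0.106) and Hsd17b10 (0.114), which interconvert steroids. Star was also higher on green than on yellow soybean arrays by 0.154 (limma adjusted p = 0.701). Yellow minus control was above 0 for 9 of the 11 (median 0.0208).

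Of 22 oestrogen-responsive genes, 18 were measured, with 10 above 0 and 8 below in both green minus control (median 0.0225) and yellow minus control (median 0.00907). Oxtr, the oxytocin receptor, averaged -0.000897 ± 0.0622 on green soybean, -0.158 ± 0.0684 on yellow soybean and -0.121 ± 0.0792 on control arrays (SD, n = 3 each), which is the same order as for Esr1. Its green minus yellow difference was 0.157 (limma adjusted p = 0.674). Between yellow soybean and control, Xbp1 (0.285) and Bcl2 (0.140) had the smallest p-values, both with limma adjusted p = 1.00. Both of those probe sets belonged to the 1345 whose control mean the authors had set to 0, all with a deposited p-value below 0.005.

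Of 24 targets of oestrogen-related receptors in energy metabolism, 19 were measured, with 11 above 0 and 8 below in green minus control (median 0.0223). Pdk4, a kinase that restrains pyruvate oxidation, differed by -0.289 (limma adjusted p = 0.440) and Cox6a2, a subunit of cytochrome c oxidase, by 0.150 (adjusted p = 0.494). Both were centred probe sets, and neither was called. Cox5b, another subunit of that enzyme, was higher on green than on yellow soybean arrays by 0.243 (limma adjusted p = 0.689). That value is from the brighter of its 2 probe sets, and the other is not given here. The median of these targets was 0.0223 and that of all probe sets 0.0296. The uncentred targets were bright, with a median of mean scores of 1.31 against 0.176 over all uncentred probe sets, so the 2 are not like for like. Esrra itself differed by 0.143, and whether it and these targets moved together was not tested.

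Of 15 other steroid hormone and nuclear receptors, 13 were measured, and 10 were above 0 in green minus control (median 0.0501), led by Nr0b2, a repressor of nuclear receptors, at 0.171 (limma adjusted p = 0.550). The androgen receptor was not analysed here. In yellow minus control, 8 of the 13 were above 0 (median 0.0374). Of 15 partners in rapid oestrogen signalling, 12 were measured, and 3 were above 0 and 9 below in green minus control (median -0.0217). Strn, a scaffold that holds oestrogen receptor alpha at the membrane, differed by -0.101 (limma adjusted p = 0.624) and Gnai1, a G protein subunit, by 0.0945 (adjusted p = 0.569). Yellow minus control was above 0 for 7 of the 12 (median 0.0146).

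**Figure D4:**
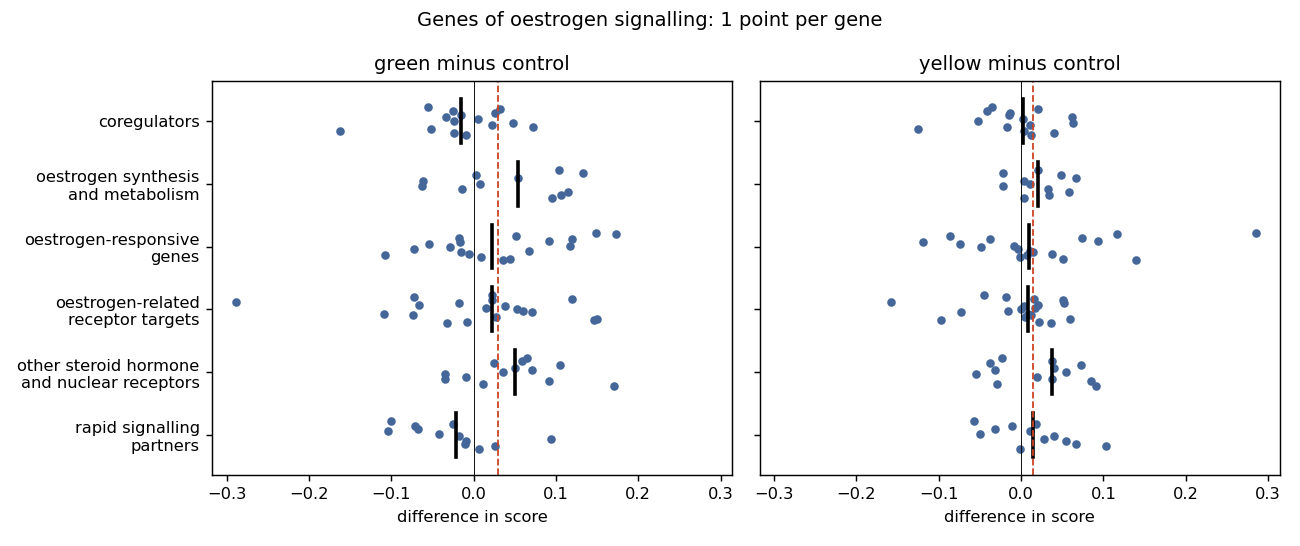
Difference in score (horizontal axis, score units) for each measured gene of 6 lists, green minus control on the left and yellow minus control on the right; black bars are list medians and the dashed line is the median of all probe sets. The green minus control medians lie between -0.0217 for rapid signalling partners and 0.0535 for oestrogen synthesis and metabolism, and the genes of every list lie on both sides of 0.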

How the data were processed

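Hippocampal RNA of 9 mouse samples was measured on 1-colour Affymetrix arrays, with 3 arrays for each of 3 diets, grouped by the sample titles. Mice are called SAMP10/TaSlc here, after the strain label, although titles carry SMP30. The scores are the authors' deposited values, normalized with SuperNORM per the labels. A p-value for each probe set, deposited by the authors, comes without its test or contrast in the sources used here. Beside it stand 9 value columns fitting no label, which were left unused. A deposited table of other normalization parameters gave a scale parameter with a median of 0.705 (0.655 to 0.720 over 9 arrays), and the base 10 of the logarithm was inferred and is not stated.

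Of 34760 probe sets, the 6573 with numbers smaller than any annotated probe set were taken as control-type and dropped. Of the other 28187, 6228 had an exact 0, read as no value, on at least 1 array and were left out, and 21959 were tested. Exact zeros made up 12.6% to 16.1% of the 28187 on an array. For 1345 of those tested the control mean was 0 within 1e-06, and these were treated as centred by the authors. The platform annotation gave 1 symbol to 21640 probe sets, several to 1321 and none to 11799.

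The test of each difference was limma's (version 3.58.1, R 4.3.3; lmFit, contrasts.fit and eBayes, no trend, 2-sided), fitted on all 9 arrays without covariates, with Benjamini-Hochberg adjustment over all probe sets tested, and the fit was tested on simulated data. The number of arrays limits the precision. For lists, the probe set with the highest mean score stood for a gene. All 8 genes were named, and from the lists those with the smallest p-values or a defining role. For likeness, the highest Pearson correlations over 9 arrays were taken. The genes and lists were chosen with earlier results of these data known. Alternatives were other filters, an exact 0 as missing, median and quantile alignment, alignment on olfactory receptor probe sets, array weights, 6 arrays, a robust fit, a replicate block and leaving out each array.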

Additional observations from a re-analysis of the deposited data

Results flagged for a closer look

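Esr1 met the criterion that every array of one diet lay on one side of all control arrays and every array of another diet on the opposite side. All green soybean arrays were above, and all yellow soybean arrays below, the control arrays. Whether green and yellow soybean differ in their effect relative to control was read from the green minus yellow difference, in which the control means cancel. It was 0.155 (limma adjusted p = 0.634) and was not called. The opposite sides themselves were not tested, and Esr1 was singled out for this separation, so the value is a description.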

How the results depend on the processing

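Of 24 differences (8 genes in 3 comparisons), 10 kept their direction under all alternatives run and 14 did not, and the smallest limma adjusted p of any of the 8 genes was 0.325. The green minus control differences of Esr1, Esr2, Esrra and Greb1 were among the 10, but with array medians aligned they fell to 0.0504, 0.122, 0.0931 and 0.0547, under quantile normalization to 0.0495, 0.120, 0.120 and 0.0646, and with arrays aligned on the olfactory receptor median, chosen after seeing the data, to 0.0141, 0.0853, 0.0567 and 0.0184. That last alignment moves every probe set by the shift of the dim ones. Esr1 in green minus yellow was 0.134, 0.118 and 0.0864 under these 3. The median green minus control difference over all probe sets was 0.0296 as deposited and -0.0205, 0.00153 and -0.0568 under them, and the probe sets at an unadjusted p below 0.05 split into 1827 higher and 307 lower as deposited, 542 and 1193, 727 and 806, and 174 and 1758. The causes were not tested.

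In green minus control, Gper1, Esrrb, Esrrg and Pgr turned to -0.0229, -0.0452, -0.0119 and -0.0271 with medians aligned, -0.0147, -0.0455, -0.00859 and -0.00104 under quantile normalization, and -0.0593, -0.0816, -0.0482 and -0.0635 with the olfactory alignment. Esrrb was -0.0242 with array weights. In yellow minus control, Gper1, Esrrg and Pgr turned to -0.0194, -0.00290 and -0.000782 with medians aligned, Gper1 and Greb1 to -0.00414 and 0.0123 under quantile normalization, Greb1 to 0.00998 with array weights and Gper1 to -0.00837 with the olfactory alignment. In green minus yellow, Gper1, Esrrb and Esrrg turned to -0.00350, -0.0109 and -0.00899 with medians aligned, -0.0105, -0.0344 and -0.0128 under quantile normalization, and -0.0509, -0.0583 and -0.0564 with the olfactory alignment, while Gper1 was -0.0116 and Pgr 0.0119 with array weights.

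Leaving out each array in turn gave, in green minus control, -0.0363 to 0.0904 for Gper1, -0.0515 to 0.0601 for Esrrb and -0.0113 to 0.0518 for Pgr. In yellow minus control it gave -0.0260 to 0.124 for Esr2, -0.0317 to 0.0358 for Gper1, -0.0586 to 0.0910 for Esrrb, -0.0346 to 0.0874 for Esrrg, -0.0164 to 0.0769 for Pgr and -0.0341 to 0.0343 for Greb1. In green minus yellow it gave -0.0458 to 0.0809 for Gper1, -0.0861 to 0.0655 for Esrrb, -0.0492 to 0.0728 for Esrrg and -0.0539 to 0.0393 for Pgr. For Esr1, Esr2, Esrra and Greb1 the green minus control ranges were 0.0665 to 0.119, 0.0966 to 0.210, 0.117 to 0.171 and 0.0902 to 0.119.

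Array weights called 1 probe set in green versus control (smallest adjusted p 0.0143), and leaving out arrays gave 0 to 1 calls in green versus control and green versus yellow, with 1 without green soybean replicate 3, and 0 to 1 in either soybean versus control, with 1 without green soybean replicate 1 or 3. None was one of the 8 genes. Of the 8 genes, the number at an unadjusted p below 0.05 in green versus control, 1 as reported, was 0 with medians aligned, 3 with array weights, 2 with only the 6 arrays compared, 0 with the olfactory alignment and 0 to 2 with an array left out. It was 0 without control replicate 3 and 2 without control replicate 1 or 2, yellow soybean replicate 2 or 3, or green soybean replicate 3. In green versus yellow, 1 as reported, it was 0 with the olfactory alignment and 1 to 2 with an array left out, 2 being without yellow soybean replicate 1 or 3 or green soybean replicate 2. In either soybean versus control, 0 as reported, it was 1 when only probe sets at or above the median score were kept with a trend, and 0 to 1 with an array left out, 1 being without yellow or green soybean replicate 2. That filter kept 10980 probe sets and 3 of the 8 genes, Esrra, Esrrg and Pgr. With each diet's mean subtracted, the correlation of the probe set most like each gene was between 0.896 (H2-M9 with Esr1) and 0.990 (Amotl1 with Gper1).

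The replicate numbers shared by the diets were tried as a block. Same-numbered arrays had correlations of their deviations from -0.0817 to 0.165, above 0.1 in 2 of 9 pairs. Other-numbered arrays ranged from -0.169 to 0.186. With 3 arrays per diet these values cannot settle whether the numbers are a pairing. With the replicate block, 0 probe sets were called in green versus control, and the adjusted p was 0.536 for Esr1, 0.538 for Esr2, 0.467 for Esrra and 0.523 for Greb1. With 3 arrays per diet, intervals as wide as those of Esr2 and Esrrb leave sizeable differences undetectable, and genes with scores in the range of olfactory receptor probe sets are the least certain.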
